A study of Mus musculus with 2 samples.

Results

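The replication-dependent histone cluster genes are the tandem and paired gene copies that encode the linker histone H1 and the core histones H2A, H2B, H3 and H4. Members were the genes of protein-coding transcripts whose symbol begins with Hist1h, Hist2h, Hist3h or Hist4h in the annotation of the deposited tables. This gave 67 genes with 72 protein-coding transcripts, out of 55536 genes in the gene table and 21938 nuclear protein-coding genes. They were 6 H1, 18 H2A, 18 H2B, 12 H3 and 13 H4 genes. On build mm10 (GRCm38), 54 lay on chromosome 13 from 21715763 to 23934851, 10 on chromosome 3 from 96219865 to 96270132, 2 on chromosome 11 from 58948920 to 58956830, and Hist4h4 on chromosome 6 from 136801553 to 136804415.

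RNA was measured in the adrenal gland, the organ that makes corticosteroids in its cortex and catecholamines in its medulla, of male B6CASTF1/J mice, an F1 hybrid, at 2 months of age. No treatment is given in the labels, and there was 1 group with 2 libraries, labelled biological replicates 1 and 2, each from 300 ng of total RNA put through ribosomal RNA reduction and a directional library kit with ERCC spike-ins. That these are separate animals rests on the numbers in the sample descriptions, since the donor entry is identical for both, so the spread between them may be technical. No conditions could be compared with a single group, and every value of replicate 2 against replicate 1 sets 1 library against 1 library.

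Histone cluster mRNAs are made mostly in S phase, when new chromatin is packed onto replicating DNA, and most of them lack introns and a poly(A) tail. Their 3′ end forms by cleavage just after a short stem-loop, which is bound by the stem-loop binding protein Slbp. Libraries that select poly(A) tails lose these mRNAs, whereas total RNA libraries such as the present ones keep them. A core nucleosome holds a pair of each core histone, and H1 binds the DNA that enters and leaves it. The copies of a histone type encode the same or nearly the same protein, so reads from their coding sequence can match several genes.

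For each library the deposited tables give an expected count per gene from alignments to the transcriptome (alignment-based) and an estimated count per transcript from the reads and an index (read-based). TPM divides counts by an effective transcript length and scales the sum over all RNAs to 1000000, so that genes can be compared per length. Read-based and alignment-based TPM were also rescaled to 1000000 over nuclear protein-coding genes, called rescaled TPM below, because the median gene stood 0.86 and 0.94 higher on the log2 scale in read-based TPM. The gene tables held 36512736 and 34454892 expected counts in replicates 1 and 2. The tissue label was checked against markers: 3 of 3 cortex markers summed to 8763 and 9830 TPM and 3 of 3 medulla markers to 1207 and 1054 TPM. No lymphocyte marker of 5 reached 1 TPM in both libraries (sums of 0.9 and 0.93 TPM), and 3 of 4 testis germ cell markers had 0 counts in both. Red cell markers (1948 and 1174 TPM) and brown fat markers (1373 and 691 TPM) were present, and higher in replicate 1.

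The stem-loop was searched in the annotated transcripts after the stop codon, as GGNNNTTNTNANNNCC on the transcript's strand with its outer 6 bases able to pair with each other. It was found in 48 of the 72 transcripts, from 46 genes, against 49 of 101577 transcripts (0.0482%) of other protein-coding genes that held it anywhere. Of the 24 transcripts without a match, 15 have no annotated 3′ UTR, so the window did not exist there, and a missing match says nothing of the real 3′ end. A match is a description of these letters and not of binding. The windows below are shown for the members that lead the levels of their type or have most signal beyond the stem-loop, and for Hist1h4b, which holds a form of its own with Hist1h4j, with the stem-loop in capitals and T for U.
Hist2h2aa2: aaaaGGCTCTTTTCAGAGCCacccactgaa
Hist1h1c: aaaaGGCTCTTTTCAGAGCCaccactccca
Hist1h1e: caaaGGCTCTTTTCAGAGCCacccacaact
Hist1h2bg: caaaGGCTCTTTTCAGAGCCacccatactg
Hist1h4h: caaaGGCCCTTTTCAGGGCCgcccacattt
Hist1h4d: caaaGGCCCTTTTCAGGGCCactaccttct
Hist1h4c: aaaaGGCCCTTTTCAGGGCCacccacaaat
Hist1h4b: aaaaGGTCCTTTTCAGGACCactcactgaa

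The 46 genes held 8 distinct stem-loop sequences, and no form was shared between H4 and another type. The other types shared forms with each other, and Hist1h3g and Hist2h2ac each held a form found in no other member. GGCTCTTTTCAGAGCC was the form in 3 H1, 10 H2A, 8 H2B and 5 H3 genes and in no H4 gene. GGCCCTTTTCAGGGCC was the form in 7 H4 genes, and the remaining H4 genes with a match held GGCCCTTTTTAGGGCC (2 genes), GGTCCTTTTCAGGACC (2 genes) or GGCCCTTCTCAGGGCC (1 gene). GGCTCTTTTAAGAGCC occurred in 1 H1, 2 H2B and 3 H3 genes.

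Histone cluster mRNA was readily measured in this gland. The 67 members summed to 947 and 991 TPM, with a mean of 969.3 ± 31 TPM (SD, n = 2). Their share of nuclear protein-coding TPM was 0.319% and 0.326%, while their share of nuclear protein-coding counts was 0.104% and 0.1%, since most of these transcripts are short (median 528 bases). At 1 TPM or more in both libraries stood 58 members (86.6%), against 11925 of 21938 nuclear protein-coding genes (54.4%), and 24 members reached 10 TPM in both. The median member stood at 6.36 TPM and the median nuclear protein-coding gene at 1.89 TPM. The signal was concentrated, since the 3 highest members, Hist2h2aa2, Hist1h4h and Hist1h1c, held 36.5% of it and the 10 highest held 60.1%. In bulk tissue, fewer cells that express a histone gene and less of its RNA per cell cannot be told apart.

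**Figure D1:**
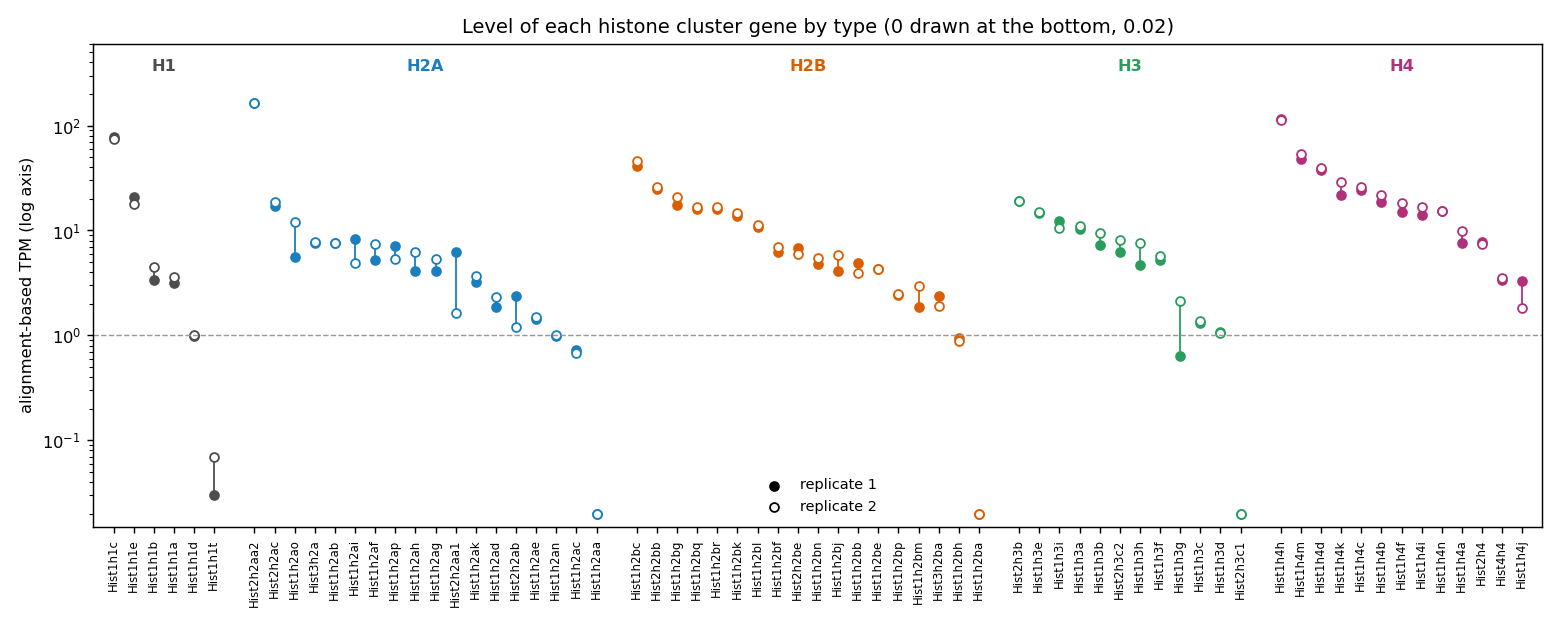
Alignment-based TPM of each of the 67 histone cluster genes (vertical axis, log scale) in replicate 1 (filled) and replicate 2 (open), ordered by mean within each type, with a dashed line at 1 TPM and values of 0 drawn at the bottom. A single gene leads H1, H2A and H4 by a wide step, while H2B and H3 decline gradually, and the libraries mostly overlap except at low levels and for near-identical copies such as Hist1h2ao and Hist2h2aa1.

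H4, the partner of H3 in the core tetramer, had the highest summed level by alignment, 332 and 355 TPM. Its 13 genes encode 1 protein of 103 residues, and all 13 reached 1 TPM in both libraries by either quantification. Hist1h4h (ENSMUSG00000060981.7, chromosome 13, 23531050 to 23531519, a transcript of 470 bases) led with 115.85 TPM in replicate 1 and 113.14 TPM in replicate 2. It alone held 34.8% and 31.9% of H4 TPM. Hist1h4m (chromosome 13, 21811746 to 21812147) stood at 47.83 and 53.38 TPM, and Hist1h4d (chromosome 13, 23581598 to 23582735) at 37.46 and 39.09 TPM. The next 6 genes, Hist1h4k, Hist1h4c, Hist1h4b, Hist1h4f, Hist1h4i and Hist1h4n, ran from mean levels of 25.4 down to 15.2 TPM. Hist1h4a, Hist2h4, Hist4h4 and Hist1h4j were lowest, the last at 3.3 and 1.82 TPM.

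Because the H4 protein is the same from every copy, the genes can be told apart at the coding level by synonymous bases alone. The first 60 coding bases are shown for the 3 leading genes, for Hist1h4n, a near copy of Hist1h4m, and for Hist4h4, the most diverged copy, with bases that differ from Hist1h4h in capitals.
Hist1h4h: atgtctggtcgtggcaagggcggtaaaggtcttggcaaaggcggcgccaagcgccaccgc
Hist1h4m: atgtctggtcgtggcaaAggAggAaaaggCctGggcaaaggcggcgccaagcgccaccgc
Hist1h4n: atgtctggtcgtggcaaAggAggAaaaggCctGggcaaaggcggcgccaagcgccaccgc
Hist1h4d: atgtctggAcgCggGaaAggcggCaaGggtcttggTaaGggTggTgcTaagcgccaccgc
Hist4h4: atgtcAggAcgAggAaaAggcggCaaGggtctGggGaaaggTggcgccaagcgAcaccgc
Over the 312 coding bases, Hist1h4m and Hist1h4n each differed from Hist1h4h at 10 bases, Hist1h4d at 19 and Hist4h4 at 43, and identity to Hist1h4h ranged from 86.2% (Hist4h4) to 96.8% over the other 12 genes.

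H3 genes had the lowest summed level of the 5 types, 82.93 and 91.37 TPM. Their 12 genes encode 2 proteins of 136 residues. The protein shared by 8 genes summed to 54.9 and 59.9 TPM and the protein shared by the other 4 to 28.0 and 31.5 TPM, so both libraries gave the same order. Hist2h3b (ENSMUSG00000074403.2, chromosome 3, 96268654 to 96269141) led with 18.92 and 19.2 TPM, followed by Hist1h3e with 14.82 and 14.91 TPM and Hist1h3i with 12.36 and 10.66 TPM. The ranges of the leading pair did not overlap, nor did those of Hist1h3e and Hist1h3i, whereas Hist1h3i and Hist1h3a (10.32 and 11.05 TPM) overlapped. Hist2h3c1 had 0 counts by both quantifications, which allows up to 3 expected counts or 0.05 TPM for counting error alone. The authors' upper credibility bounds of its TPM were higher, 0.421 in replicate 1 and 0.344 in replicate 2. All 100-base stretches of Hist2h3c1 also occur in other transcripts, so its reads may have been counted elsewhere.

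Replication-independent histone mRNAs, which have poly(A) tails and are made throughout the cell cycle, give a measure for these levels. H3f3a, an H3.3 gene, stood at 190.24 and 198.67 TPM and H3f3b, which encodes the same protein, at 104.98 and 118.47 TPM, each above the sum of the 12 H3 cluster genes. In read-based TPM H3f3a stood at 443.39 and 499.18, H3f3b at 170.06 and 195.23, and the H3 cluster genes summed to 152.4 and 170.7. H3f3a was again above the sum, whereas H3f3b was above it within each library but with overlapping ranges. With transcripts cut at the stem-loop, described further on, the H3 cluster sum of 107 and 117 TPM overlapped H3f3b. The linker histone gene H1f0 stood at 59.17 and 58.61 TPM. The list of 11 histone genes outside the cluster names held variants and linker histones, many but not necessarily all of them independent of replication. All 11 reached 1 TPM in both libraries and they summed to 520 and 552 TPM.

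H2A genes summed to 246 and 251 TPM, and 1 locus held most of it. Hist2h2aa2 (ENSMUSG00000063954.7, chromosome 3, 96239749 to 96240276) stood at 162.99 and 163.6 TPM, the highest value of any member, and its near copy Hist2h2aa1 (ENSMUSG00000064220.6, chromosome 3, 96245497 to 96246082) at 6.2 and 1.63 TPM. They encode the same protein, and 100% of the 100-base stretches of Hist2h2aa2 occur in Hist2h2aa1. The split between them is therefore uncertain, and the pair is better read as a sum of 169 and 165 TPM. Of the 100-base stretches, 100% in Hist2h2aa2 and 88.3% in Hist2h2aa1 also occur in transcripts of genes outside the members. The sum thus also depends on how reads were divided with those genes. Next stood Hist2h2ac with 17.04 and 18.57 TPM. Hist1h2ao had the third mean, with 5.61 and 12.03 TPM, through replicate 2 alone: in replicate 1 it lay below Hist1h2ai (8.26 TPM), Hist3h2a (7.62 TPM), Hist1h2ab and Hist1h2ap, and its read-based TPM was 1.39 and 1.7. Most H2A genes on chromosome 13 encode 1 protein of 130 residues: 9 genes do, and together they summed to 37.6 and 40.7 TPM. Hist2h2aa1 and Hist2h2aa2 share another, and the other H2A genes each encode a protein of their own, which made 9 in all. Hist1h2aa, an H2A gene known from testis, had 0 counts by both quantifications, which allows up to 3 counts or 0.28 TPM.

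H2B genes, whose protein pairs with H2A, summed to 179 and 193 TPM and were more evenly spread, since their leading gene held 23.1% and 23.8% of it. Hist1h2bc (ENSMUSG00000018102.5, chromosome 13, 23684199 to 23692908) stood at 41.34 and 45.8 TPM, Hist2h2bb at 24.74 and 25.93 TPM and Hist1h2bg at 17.43 and 20.83 TPM. The gene span of Hist1h2bc is long because its annotated transcript is spliced to a distal exon and holds no stem-loop. Hist1h2bq and Hist1h2br, at 16.12 and 16.75 and at 16.14 and 16.74 TPM, share an identical annotated transcript of 381 bases, so their near-equal values are a division of the same reads. The 18 genes encode 11 proteins. The protein of Hist1h2bc, Hist1h2be and Hist1h2bg summed to 63.0 and 70.9 TPM and that of a group of 6 genes led by Hist1h2bq and Hist1h2br to 58.1 and 63.1 TPM. Hist1h2ba, an H2B gene known from testis, had 0 expected counts in both libraries but 52 and 4.9 counts in the read-based tables, so its detection depended on the quantification.

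H1 genes, each with a protein of its own, summed to 106 and 102 TPM. Hist1h1c (ENSMUSG00000036181.2, chromosome 13, 23738808 to 23740367) stood at 78.18 and 74.36 TPM and held 73.5% and 73.2% of H1 TPM. Hist1h1e followed with 20.66 and 18.02 TPM and Hist1h1b with 3.4 and 4.51 TPM. Hist1h1a stood at 3.17 and 3.57 TPM, which overlapped Hist1h1b, and Hist1h1d at 0.99 and 1.01 TPM. The testis H1 gene Hist1h1t had 1 and 2 expected counts, under the floor of 3 counts used here. H1 members shared at most 5.1% of their 100-base stretches with other genes except Hist1h1e (24.7%), and 4438 and 3931 expected counts of Hist1h1c make it the most deeply counted member.

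The order of the types depended on the quantification for H4 and H2A. By alignment the order of summed TPM was H4, H2A, H2B, H1 and H3, with no overlap between the libraries' ranges of neighbouring types. In read-based TPM H2A came first with 554 and 590 TPM and H4 second with 449 and 494 TPM. Rescaled TPM showed the same exchange: H4 stood at 1118 and 1166 by alignment and 770 and 788 read-based, and H2A at 828 and 824 by alignment and 950 and 941 read-based. H2B stood at 603 and 633 by alignment and 439 and 435 read-based, H1 at 358 and 334 against 293 and 276, and H3 at 279 and 300 against 261 and 272. With read-based counts divided by the alignment-based effective lengths, H2A again led, with a mean of 641.7 ± 13, followed by H4 with 454.6 ± 3.74 (SD, n = 2). H4 thus led H2A in the alignment-based tables and not in the read-based ones.

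**Figure D2:**
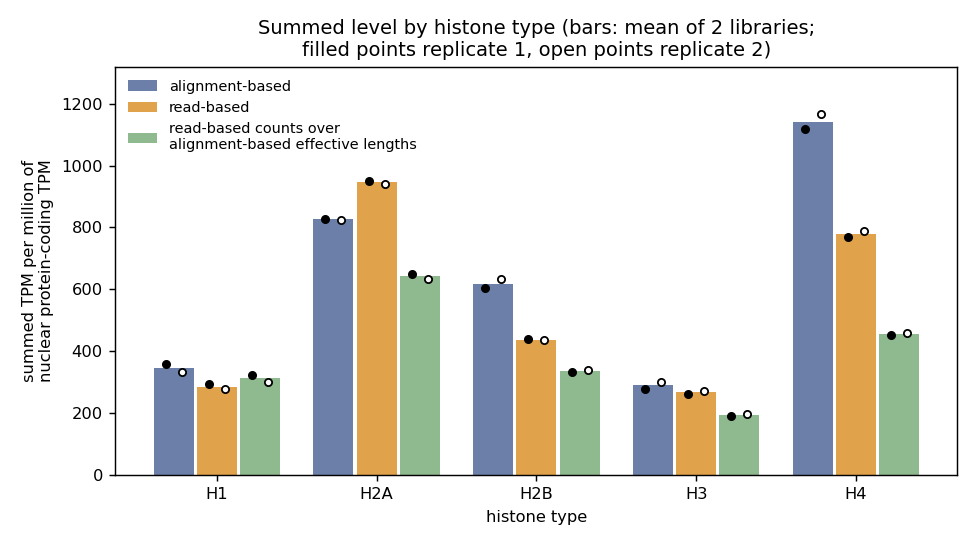
Rescaled TPM summed over each histone type, for the alignment-based tables, the read-based tables, and read-based counts over alignment-based effective lengths; bars start at 0 and show the mean of 2 libraries, and points show replicate 1 (filled) and replicate 2 (open). H4 leads in the alignment-based values (1118 and 1166) and H2A in both others, and the libraries lie closer together than the quantifications do.

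Part of the difference was present in counts before any length was applied, and that part was concentrated in H4. Effective lengths differed as well: for Hist1h4h, of 470 bases, 371 by alignment but 157.4 and 156.8 read-based. For H2A, mean rescaled TPM was 826.4 by alignment, 641.7 with read-based counts over alignment-based effective lengths and 945.3 read-based. Read-based counts of the members summed to 75.4% and 74.1% of the alignment-based counts. The share was 94.6% and 95.2% for H1, 89.4% and 86.7% for H2A, 88.1% and 87.7% for H2B and 78.4% and 77.3% for H3, but 37.9% and 37.0% for H4. In counts, 26 of the 64 members at 1 TPM or more by either method were over 2-fold lower in the read-based tables in both libraries, against 3.92% of 15242 genes, and 10 of them were H4 genes of 13. A further 5 members were over 2-fold higher, against 3.56% of all genes. Among the 43 other nuclear protein-coding genes with a single transcript of 312 to 600 bases, 13 (30.2%) were over 2-fold lower and 8 (18.6%) higher, beside 20 (52.6%) and 3 (7.89%) of the 38 members of up to 600 bases.

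**Figure D3:**
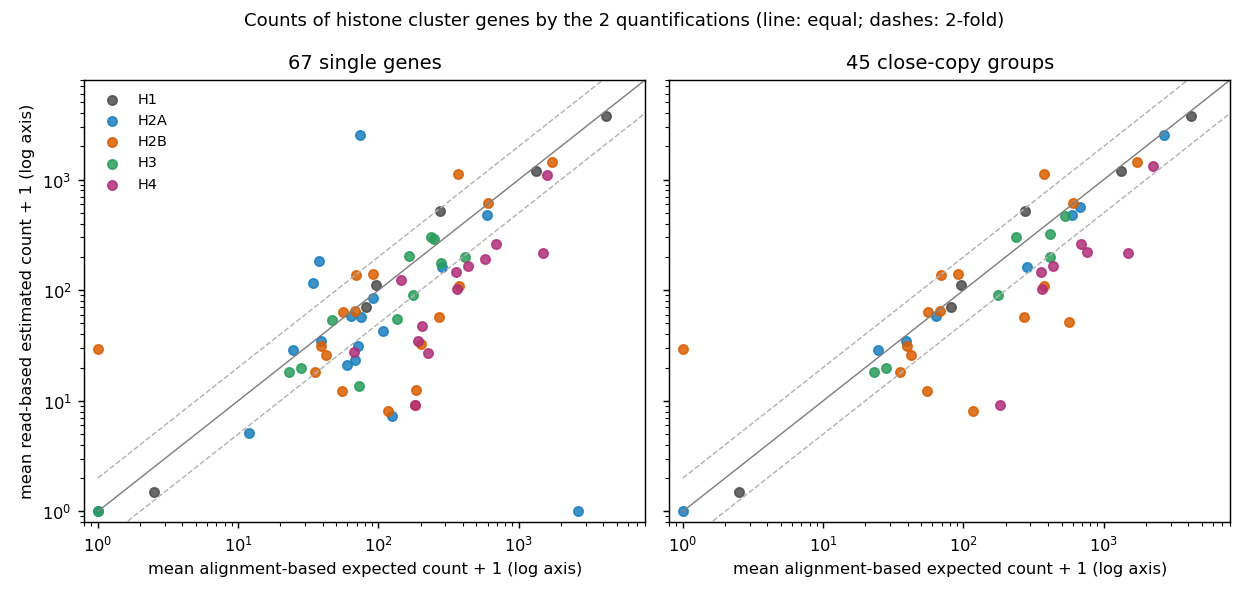
Mean read-based estimated count against mean alignment-based expected count, both plus 1 on log axes, for the 67 members (left) and for the 45 groups left after close copies are joined (right), with lines for equality and for 2-fold. Joining close copies brings Hist2h2aa1 and Hist2h2aa2 onto the line, while H4 genes stay below it in both panels.

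Short members had lower count ratios than long ones, with H4 as the exception. Members of up to 600 bases had median count ratios, read-based over alignment-based, of 0.443 and 0.428 (38 members), and longer members of 0.877 and 0.859 (26 members). The 43 other short genes had medians of 0.531 and 0.656. Long H4 transcripts were low as well. Hist1h4d, with a transcript of 1138 bases, held 223 and 211 read-based counts beside 1512 and 1469 expected counts, a ratio of 0.147 and 0.144, and shared 0.0% of its 100-base stretches with other genes. Hist2h4 (1630 bases) had ratios of 0.389 and 0.366 and Hist4h4 (annotated at 2863 bases) of 0.432 and 0.377. The reason for the H4 difference was not tested.

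**Figure D4:**
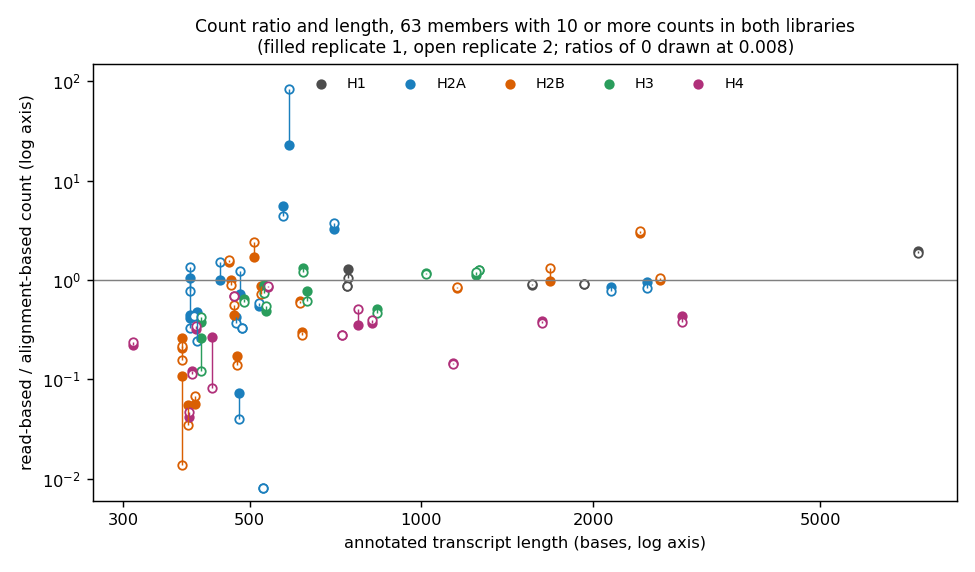
Read-based over alignment-based count (log axis) against annotated transcript length (log axis) for the 63 members with 10 or more counts in both libraries, replicate 1 filled and replicate 2 open. H1 genes lie near 1 apart from Hist1h1d, H4 genes lie below 1 at every length, and short H2A and H2B genes spread from under 0.1 to over 10.

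In TPM the picture was mixed. After centring on the median of all genes, 23 of 64 members differed over 2-fold between the quantifications in both libraries, against 7.71% of 15242 genes: 8 were higher in the read-based tables (4.05% of all genes) and 15 lower (3.66%). Short genes in general were called about as often: 15 of 38 members of up to 600 bases (39.5%) and 18 of the 43 other single-transcript genes of that length (41.9%). The members' median was -0.2 on the log2 scale in both libraries. By type, 7 of 13 H4 genes, 10 of 18 H2B genes and 6 of 17 H2A genes were apart, and none of 11 H3 or 5 H1 genes. The largest differences downwards, on the log2(TPM + 0.01) scale, were those of Hist2h2aa2 (-14.85 and -14.94), Hist1h2bq (-6.96 and -7.59) and Hist1h2br (-7.01 and -6.81). Upwards they were those of Hist1h2ba (10.06 and 6.76), Hist2h2aa1 (5.09 and 6.95) and Hist1h2ad (3.1 and 2.75). Hist2h2aa2 had 2717 and 2539 expected counts against 0 and 0 read-based counts, so its value is set by the pseudocount. Hist2h2aa1 had 117 and 28.8 expected against 2667 and 2378 read-based counts, and Hist1h2ad 34.3 and 39.5 against 191.8 and 173.8.

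Summing close copies brought some of these genes back together and left others apart. Over 50% of their 100-base stretches were shared with another annotated gene in 25 members, and 7 members shared none. The median member shared 34.3% of its 100-base and 58.5% of its 31-base stretches. Joining members that share 50% or more of the smaller one's 100-base stretches gave 7 groups of 2 or more genes with 29 members, and 45 groups in all. Hist2h2aa1 and Hist2h2aa2 together had 2834 and 2568 expected counts and 2667 and 2378 read-based counts, a ratio of 0.941 and 0.926 where the single genes were at opposite ends. The 10-gene H2A group, Hist1h2ab, Hist1h2ad, Hist1h2ae, Hist1h2af, Hist1h2ag, Hist1h2ah, Hist1h2ai, Hist1h2an, Hist1h2ao and Hist1h2ap, had ratios of 0.85 and 0.829. The 3-gene H3 group Hist2h3b, Hist2h3c1 and Hist2h3c2 had 0.879 and 0.881.

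Other groups stayed far apart after joining. Hist1h2bk, Hist1h2bq and Hist1h2br together had 575 and 555 expected counts but 55.9 and 46.1 read-based counts, a ratio of 0.0972 and 0.0831. The H4 group Hist1h4a, Hist1h4b, Hist1h4h, Hist1h4j and Hist1h4k had 2284 and 2175 expected counts and ratios of 0.59 and 0.591, and Hist1h4m with Hist1h4n had 0.304 and 0.279. Across members, the Pearson correlation of log2(count + 1) between the quantifications was 0.634 and 0.615 (n = 67), and across groups 0.84 and 0.856 (n = 45). Over 13062 other nuclear protein-coding genes it was 0.963 and 0.962. These points are genes of the same library and are given as a description.

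The authors' posterior standard deviation of each count measures how firmly the alignment-based quantifier could assign reads to a gene. Among members with 20 or more counts in both libraries, it exceeded the counting error (the square root of the count) in 22 of 60, against 230 of 13523 other nuclear protein-coding genes (1.7%). For Hist1h2bq it was 96.29 and 98.55 on 182 and 178 counts. The authors' credibility interval of its TPM ran from 0.4 to 32.5 in replicate 2, around a value of 16.75. For Hist1h4m it was 61.2 and 63.92 on 563 and 585 counts. For Hist1h1c it was 6.78 and 5.71 on 4438 and 3931 counts, so its reads were assigned with little doubt.

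Some annotated transcripts end near the stem-loop and others run far past it, into sequence that cleavage at the stem-loop would leave out. Transcripts that end within 50 bases of it held 47.8% and 47.4% of the members' TPM, transcripts that run past it 30.1% and 29.7%, and transcripts without a match 22.1% and 22.9%. Read-based, the shares were 57.9% and 57.5%, 24.3% and 24.9%, and 17.8% and 17.7%. Most TPM beyond the limit lay on Hist1h1c, annotated to 840 bases past the stem-loop, Hist1h4d (770 bases), Hist1h4c (454 bases), Hist1h1e (1153 bases) and Hist1h2bg (155 bases). The tables give 1 value per transcript, so whether reads covered the part after the stem-loop cannot be told from them. If all reads of such transcripts came from before the stem-loop, their effective lengths would be shorter: with transcripts cut 5 bases after it, a choice made after seeing the data and without rescaling other genes, Hist1h1c stood at 182.46 and 173.55 TPM in place of 78.18 and 74.36. Hist1h4d would stand at 142.05 and 148.23 TPM, above the unaltered Hist1h4h. The summed levels would be 575 ± 22 TPM for H4, 286 ± 3.51 for H2A, 240 ± 10.2 for H1, 212 ± 10.1 for H2B and 112 ± 7.19 for H3 (SD, n = 2), so that H1 would move above H2B.

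Many H2A and H2B genes lie head to head and share the DNA between their starts. There were 12 such divergent pairs, with 176 to 306 bases between the annotated starts. By mean alignment-based TPM the H2B gene stood above its H2A partner in 10 pairs and the H2A gene was higher in 1, Hist2h2ac with Hist2h2be, at 17.04 and 18.57 against 6.81 and 5.91 TPM. The last pair, Hist1h2aa with Hist1h2ba, had 0 expected counts on both sides. In the 10 pairs with H2B higher, the ratio of H2B to H2A ranged from 1.06, for Hist1h2bj over Hist1h2ag, to 61.8, for Hist1h2bc over Hist1h2ac, at 41.34 and 45.8 against 0.73 and 0.68 TPM. The annotated length of Hist1h2ac, 2482 bases with a stem-loop well before its end, enters that ratio. The tally depended on the quantification: in read-based TPM the H2B gene was higher in 7 pairs and the H2A gene in 5, in each library. Hist1h2ai with Hist1h2bl, Hist1h2ak with Hist1h2bn, Hist1h2ao with Hist1h2bq and Hist1h2ap with Hist1h2br changed sides, the last at 17.24 and 23.24 against 0.22 and 0.28 read-based TPM. By alignment, across the 12 pairs log2(TPM + 1) had a Pearson correlation of 0.32 and a Spearman correlation of 0.189, with close copies among the points.

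RefSeq promoters of build GRCm38.p6, 250 bases before to 50 after the start, were matched for 62 members. The octamer ATTTGCAT, the site of Oct factors known from H2B promoters, was searched on both strands. It lay in 7 of 18 H2A and 7 of 16 H2B promoters and in 0 of 6 H1, 10 H3 and 12 H4 promoters, against 1.74% of 32851 RefSeq promoters. Where a member had several promoters, one with the octamer was preferred, then one with CCAAT, whereas the RefSeq share counts every promoter. Some divergent pairs, such as Hist1h2aa with Hist1h2ba, hold the same octamer, which counts in both types. CCAAT on either strand lay in every matched H1, H2A, H2B and H3 promoter and in 3 of 12 H4 promoters (25.0%), against 37.4% of all. The windows of 3 H2B members with their coordinates show the octamer, in capitals, in the gene's direction. The first 2 also lie in the promoter window of the divergent partner, Hist1h2ae and Hist1h2ah.
Hist1h2bg (chr13:23571330-23571359, plus strand): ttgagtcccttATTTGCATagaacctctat
Hist1h2bk (chr13:22035780-22035809, plus strand): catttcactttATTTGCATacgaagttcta
Hist2h2bb (chr3:96269641-96269670, plus strand): tgtgaaacctcATTTGCATacaagctctat
Presence of the octamer did not go with one level. Matched H2B members that hold it ranged from 0 TPM for Hist1h2ba, through 1.88 and 2.96 TPM for Hist1h2bm, to 24.74 and 25.93 TPM for Hist2h2bb. Hist1h2bc, the highest H2B gene by alignment (41.34 and 45.8 TPM), and Hist2h2be had no matched promoter and are outside this range and the tally. The octamer windows of their divergent partners, Hist1h2ac and Hist2h2ac, lie upstream of the annotated starts of Hist1h2bc and Hist2h2be. A match or its absence says nothing here of the factor.

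Replicate 2 was set against replicate 1 to measure the spread. The members' summed counts were 23730 and 22514, and after TMM scaling (edgeR) the log2 ratio of replicate 2 over replicate 1 was -0.07 (95% counting interval -0.09 to -0.04). Its sign depended on the scaling: total count gave 0.01 and the ratio of TPM 0.07. The spread of single genes between the libraries, given for scale only, was a biological coefficient of variation of 0.103 over 16789 genes. For the 62 members that averaged at least 20 counts, the median log2 ratio was -0.02, against 0 for all 15660 genes, with 27 members above 0 and 35 below; scaling by total count gave a median of 0.05. Their counting intervals lay above 0 in 5 members (8.06%), against 16.7% of all genes, and below 0 in 10 (16.1%), against 17.4%. By type the log2 ratios of summed counts were -0.18 for H1 (interval -0.23 to -0.13), -0.08 for H2A, -0.02 for H2B, 0.06 for H3 (-0.04 to 0.15) and -0.02 for H4.

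One member, Hist1h2ao, was over 2-fold apart among the 36 with a mean of 100 or more counts, against 0.451% of 12430 genes. It was higher in replicate 2 (0.225% of all genes) and no member was lower (0.225%). It had 83.1 and 165.9 expected counts, a log2 ratio of 1.0 (95% counting interval 0.62 to 1.41), and posterior standard deviations of 40.98 and 42.95. Its read-based counts were 6.1 and 6.6, and the summed counts of its 10-gene group, 643 and 702, had a log2 ratio of 0.14 (-0.02 to 0.29). At a mean of 20 or more counts 4 of 62 members (6.45%) were over 2-fold apart, against 1.55% of 15660 genes, and the 3 besides Hist1h2ao are named after their values were seen: Hist2h2aa1 (117 and 28.8 counts), Hist2h2ab (32.1 and 15.1) and Hist1h3g (10.8 and 33.4). Summed with Hist2h2aa2, Hist2h2aa1 had a log2 ratio of -0.13 (-0.21 to -0.05). Among deeply counted members, Hist1h1c was at -0.17 (-0.23 to -0.1) and Hist1h1e at -0.29 (-0.4 to -0.18), and Hist2h2be at -0.3 (-0.46 to -0.13).

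**Figure D5:**
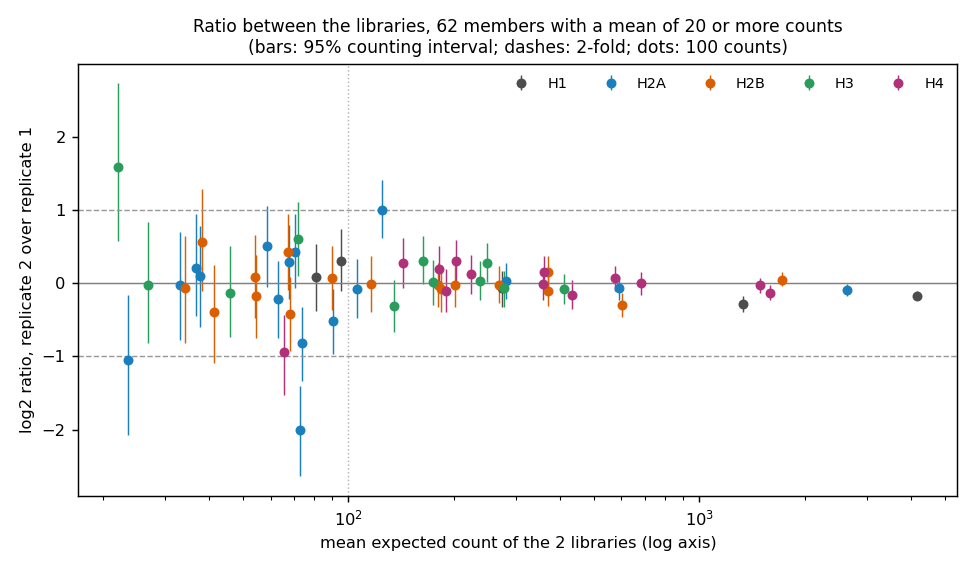
Log2 ratio of replicate 2 over replicate 1 against the mean expected count (log axis) for the 62 members that averaged at least 20 counts, with 95% counting intervals, dashed lines at 2-fold and a dotted line at 100 counts. Above 100 counts the ratios gather around 0 except for Hist1h2ao at 1.0, and the widest deviations, Hist2h2aa1 at -2.0 and Hist1h3g at 1.59, lie at low counts.

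Other genes of the histone supply were measured from lists. Of 20 genes of S phase and division, 14 reached 1 TPM in both libraries, and they summed to 75.0 and 88.4 TPM. Pcna, the sliding clamp of DNA polymerase, stood at 18.73 and 20.76 TPM, and the replicative helicase genes Mcm2 at 9.57 and 11.02 and Mcm7 at 6.68 and 9.03 TPM. Their ratios were above 0 in 18 of 20 (median 0.16), with counting intervals above 0 in 7 and below 0 in none, against 16.7% and 17.4% of all genes. The difference from the histone members was not tested. Brown fat markers (median log2 ratio -1.1, 3 of 3 over 2-fold lower), red cell markers (-0.76, 5 of 5 with intervals below 0) and medulla markers (-0.29, 3 of 3) were lower in replicate 2, and the part of cell makeup in the members' ratios was not tested.

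Of 14 listed genes of histone mRNA transcription and 3′ end processing, 13 were found and 12 reached 1 TPM in both libraries, with the helicase Upf1 at 17.51 and 19.39, the endonuclease Cpsf3 at 18.5 and 17.08 and Cpsf2 at 10.37 and 10.95 TPM. Slbp itself stood at 8.5 and 10.72 TPM, and Npat, which activates histone gene transcription, at 3.75 and 3.58 TPM; both are named beyond the rule of highest level. Histone chaperones, which hand new histones to chromatin, reached 1 TPM in both libraries for 5 of 8. Hira, the chaperone of H3.3, stood at 10.97 and 11.49 TPM, Asf1a at 10.6 and 9.46 and Daxx at 8.77 and 9.0 TPM. Hat1 stood at 8.14 and 9.04 TPM and Nasp at 6.67 and 7.14 TPM. The listed subunits of the replication-coupled chaperone were lower, with Chaf1a at 0.73 and 1.5 and Chaf1b at 0.6 and 0.67 TPM. Asf1b was also low, at 0.71 and 0.75 TPM. The chaperone genes after Daxx are named after their values were seen.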

How the data were processed

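The 2 adrenal gland total RNA-seq libraries, in 1 group, were used as deposited. Per the file headers and deposited notes, the authors derived expected counts and TPM per gene and transcript from transcriptome alignments, and estimated counts and TPM per transcript from the reads and an index, on mm10 with annotation M21. The names of aligner and quantifiers are not given in the sources used here. The deposited posterior standard deviation of counts and the credibility bounds of TPM are scores of the authors' quantifier. Counts shared between copies were divided by the quantifiers, and allele-specific expression was not analysed here.

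Members were chosen by symbol, and members and lists were chosen with earlier results of these data known. Read-based values were summed per gene. Counts were scaled with TMM (edgeR 4.0.16) over the whole gene table, ratios are log2 with a pseudocount of 0.5, and intervals are 95% Clopper-Pearson intervals of the share of counts in replicate 2. Intervals and the floor of 3 counts cover counting error only. Ratios needed a mean of 20 counts and 2-fold calls a mean of 100. Differences between the quantifications used log2(TPM + 0.01) over genes at 1 TPM or more by either method, centred on medians of 0.86 and 0.94. The call was tested on simulated counts: 99.5% of 3-fold changes and 0.00817% of unchanged genes were called among 12432 genes. These counts were drawn gene by gene at a fixed dispersion close to that of these libraries, without reads shared between copies. The rates therefore do not cover errors in assigning reads to near-identical members. Alternatives were total count, DESeq2 1.42.0 size factors, other filters, pseudocounts and scalings, and each library alone. Named are the 3 highest members of each type, members over 2-fold apart, the 3 largest differences each way between quantifications, close copies, the 5 with most TPM past the stem-loop and the 3 highest of each list. Other named members illustrate a range or a group. Sequence work used the M21 transcripts and RefSeq promoters with pandas 2.3.3 and Biopython 1.88 under Python 3.11.15.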

Additional observations from a re-analysis of the deposited data

How the results depend on the processing

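No paired analysis was possible because the series has 1 group. The members' summed level, 969 TPM, was 1642 with read-based TPM, 3222 and 2713 with alignment-based and read-based TPM rescaled to nuclear protein-coding genes, 1937 with read-based counts over alignment-based effective lengths and 1425 with transcripts cut at the stem-loop, an alternative chosen after seeing the data. With either library alone it was 947 to 991 TPM. In the same order of settings, H1 (104 TPM) was 172, 345.8, 284.6, 311.6 and 240.2, H2A (248.6 TPM) was 572.1, 826.4, 945.3, 641.7 and 286.1, H2B (185.9 TPM) was 264.5, 617.7, 437.1, 335.6 and 212.2, H3 (87.2 TPM) was 161.6, 289.6, 266.7, 193.5 and 112.0, and H4 (343.7 TPM) was 471.7, 1142, 779, 454.6 and 574.7. Rescaling changes the denominator and so every value. At 5 TPM in place of 1, 36 in place of 58 members passed in both libraries. The log2 ratio of summed counts, -0.07, was 0.01 by total count, 0.07 by the ratio of TPM and -0.1 from read-based counts. The number of members over 2-fold apart, 1, was 4 at a mean of 20 counts and 0 from read-based counts. The median log2 difference between the quantifications, 0.7, was -0.2 after centring and -0.76 in counts. The share of TPM past the stem-loop, 29.9%, was 24.6% read-based. The divergent pairs with H2B higher, 10, were 7 read-based, 10 with transcripts cut at the stem-loop and 9 to 10 with either library alone, alternatives also chosen after seeing the data. The causes were not tested. With 2 libraries and near-identical copies, sums over a type or group are better determined than single genes. Detection of Hist1h1t and Hist1h2aa, which share no 100-base stretches with other genes, is limited by depth. Hist1h2ba shares some of its 100-base stretches with other genes, and its detection depended on the quantification. All 100-base stretches of Hist2h3c1 also occur in other transcripts, so its reads may have been counted elsewhere. The part of shared sequence in the detection of Hist1h2ba and Hist2h3c1 was not tested.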

Other observations

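Histone loci outside the members took a visible share of reads. Hist1h2al, annotated as a processed pseudogene and so outside the rule for members, had 286 and 254 expected counts, 30.7 and 29.3 TPM, with posterior standard deviations of 6.34 and 5.39, but 0 and 0 read-based counts; it was chosen after its values were seen. Its alignment-based TPM lies below 6 of the 67 members and above the rest. Hist3h2bb-ps, a pseudogene, had 6.57 and 4.54 expected counts.

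Gm20634, a processed transcript on the same strand that covers all 1825 exon bases of Hist2h3c1 and 529 of the 586 of Hist2h2aa1, had 806 and 772 expected counts and 962 and 920 read-based counts. Its share in the 0 counts of Hist2h3c1 and in the low alignment-based values of Hist2h2aa1 was not tested. In the read-based tables Hist2h2aa1 was not low, with 2667 and 2378 counts. On the opposite strand of Hist2h2aa1 and Hist2h2aa2, the antisense genes Gm20633 and Gm20632 had 67.1 and 81.6, and 69.3 and 71.1 expected counts. Annotated microRNA genes lie on the opposite strand of 17 H2A members, and together they held 3.98 and 1.06 expected counts and 0 read-based counts. Hist1h2be and Hist1h1e overlap by 496 exon bases on the same strand, and Hist1h2be had 385 and 357 expected counts against 1150 and 1106 read-based counts. Hist3h2a overlaps Trim17 by 708 exon bases on the same strand, where Trim17 had 5.59 and 18.2 expected counts.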
